A study of Rattus norvegicus with 20 samples.

Results

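The microRNAs miR-144 and miR-451 were measured in soleus muscle and dorsal root ganglia (DRGs) of rats with a long-standing injury of the sciatic nerve. Both were taken by their names on the array, rno-miR-144 and rno-miR-451, and are 2 of the 348 miRNAs that carried a single name in every scanner file. The samples were 20 arrays of adult male Sprague-Dawley rats, 10 of soleus muscle and 10 of lumbar DRGs, with 1 sham-operated array and 3 arrays for each of 3 injuries in either tissue. In the denervation group the sciatic nerve had been cut, a segment had been removed, and tissue was taken after 6 months. In the entrapment group a silastic tube that did not constrict the nerve had stayed around it for 6 months. In the decompression group the tube had been removed after 6 months of entrapment and tissue was taken 3 months later. The sham group had a sham operation, whose time before tissue was taken is not given in the sources used here. It stands on 1 array per tissue, so its own spread was not measured. The Methods speak of 3 rats in every group, sham included, and whether the RNA on the sham array came from 1 rat or was a pool is not given in the sources used here. Every difference from sham below is a difference from that array. The nerve of 1 side was injured, and the tissues were frozen whole. A step to flush blood from the vessels is not given in the sources used here.

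miR-144 and miR-451 are the best known erythroid miRNAs. They lie next to each other in the genome, are transcribed as 1 precursor under the control of the erythroid factor GATA1, and reach high levels in maturing and circulating red blood cells. miR-451 is unusual in that Dicer does not cut it: Argonaute2 cleaves its short hairpin directly, so that its mature strand runs on into the loop. In solid tissues they are commonly taken as a sign of blood in the sample.

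The mature strands are shown because the seed, which is printed in capitals (bases 2 to 8 from the 5′ end), decides which messages a miRNA pairs with. The 2 members do not share it, and miR-101a and miR-101b are added as the miRNAs closest to miR-144 in this stretch. Sequences and positions are from RefSeq on the rat build GRCr8, and all 4 names were matched there. The array names carry no arm, and miR-144 and miR-451 were matched to the 3p arm and the 5p arm, which those names denoted in the release of miRBase behind the array.
miR-144 (chr10:63459446-63459465, plus strand): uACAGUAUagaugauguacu
miR-451 (chr10:63459585-63459606, plus strand): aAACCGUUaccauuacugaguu
miR-101a (chr5:121081691-121081711, minus strand): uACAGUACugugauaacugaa
miR-101b (chr1:236273982-236274002, plus strand): uACAGUACugugauagcugaa
Of 693 mature rat miRNAs in that table, 1 held the seed of miR-144 and 1 held the seed of miR-451, in each case the member itself. Bases 2 to 7 of miR-144 were shared by 3 miRNAs, itself and the miR-101 pair, which differ from it at the last seed base (U8C, counted from the 5′ end). Of miR-451 the same 6 bases were found in 1 miRNA alone.

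The hairpins are shown because they carry the shared origin of both members and the different way they are processed. Here the mature strand is in capitals.
Mir144 (chr10:63459397-63459479, plus strand): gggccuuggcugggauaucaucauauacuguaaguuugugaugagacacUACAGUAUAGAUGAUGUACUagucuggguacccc
Mir451a (chr10:63459569-63459640, plus strand): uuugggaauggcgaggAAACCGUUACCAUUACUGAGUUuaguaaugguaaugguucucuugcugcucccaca
Only 89 bases separated the 2 hairpins, and the mature strands began 139 bases apart on the same strand. The Mir144 hairpin of 83 bases held its mature strand at bases 50 to 69, on the 3′ side. The Mir451a hairpin of 72 bases held its mature strand at bases 17 to 38, beginning on the 5′ side. The protein-coding genes next to the cluster were Flot2 before it and Eral1 after it.

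Feature Extraction called both members detected on 20 of 20 arrays. Signals were the total gene signal of the scanner software, each array brought to a common 75th percentile within its tissue, and are given below as scaled signal. In soleus this percentile ranged from 409 on the sham array to 2539, a 6.20-fold range of brightness, and in the DRGs it ranged 1.62-fold. The DRG percentile was 97.5 to 117 on the sham and denervation arrays and 72.0 to 88.1 on the entrapment and decompression arrays. Detection calls numbered 213 to 233 and 183 to 200 miRNAs on these DRG arrays, so brightness and detection split along the same groups. The tissues matched their labels: the summed scaled signal of 5 skeletal muscle miRNAs was 56279 to 342043 in soleus and 252 to 401 in the DRGs, and that of 6 neuronal miRNAs was 0 to 38.4 in soleus and 3500 to 4231 in the DRGs. The muscle marker miR-499 was not detected on the soleus sham array. In the DRGs the table of processed values carried the entrapment and decompression names the other way round from the scanner files: its 3 entrapment columns held the values of the scanner's decompression arrays, and its 3 decompression columns those of the entrapment arrays. DRG values below follow the labels of the scanner files, and the entrapment and decompression groups of the DRGs would change places under the other names. The sham and denervation arrays were parted without overlap from the entrapment and decompression arrays by 12 of 45 control features in soleus and by 24 of 45 in the DRGs. Handling and group therefore cannot be told apart between these sets. The control features were read unscaled, and how far those in the DRGs repeat the brightness of the arrays was not tested.

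In soleus, miR-144 stood below sham on all 9 injury arrays while miR-451 did not, and neither member passed the test in any comparison. The scaled signal of miR-144 was 410.1 on the sham array. After denervation it was 97.5, 204 and 23.6, after entrapment 53.9, 82.9 and 116, and after decompression 177, 27.1 and 27.2. The sham array was thus the highest of the 10, and the 3 injury groups overlapped each other. The distance below sham was 2.01-fold to 17.4-fold after denervation, 3.54-fold to 7.60-fold after entrapment and 2.31-fold to 15.1-fold after decompression. miR-144 therefore lay at least 2-fold below sham on each array of all 3 groups, a pattern shared by 18.5% of the 173 miRNAs tested after denervation, 27.2% after entrapment and 27.2% after decompression. Lying below sham on all 3 arrays at any distance held for 38.2%, 53.2% and 49.1%. The arrays measured RNA of whole tissue, so fewer cells that hold a miRNA and less of it per cell cannot be told apart.

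The scaled signal of miR-451 in soleus was 769 on the sham array. After denervation it was 886, 2054 and 195, after entrapment 415, 536 and 694, and after decompression 1021, 169 and 187. Here the sham array lay inside the denervation and decompression groups, and slightly above the entrapment group. No injury group lay 2-fold below sham throughout. The lowest arrays were the same for both members: denervation 3, decompression 2 and decompression 3 held the 3 lowest signals of miR-144 and of miR-451.

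**Figure D1:**
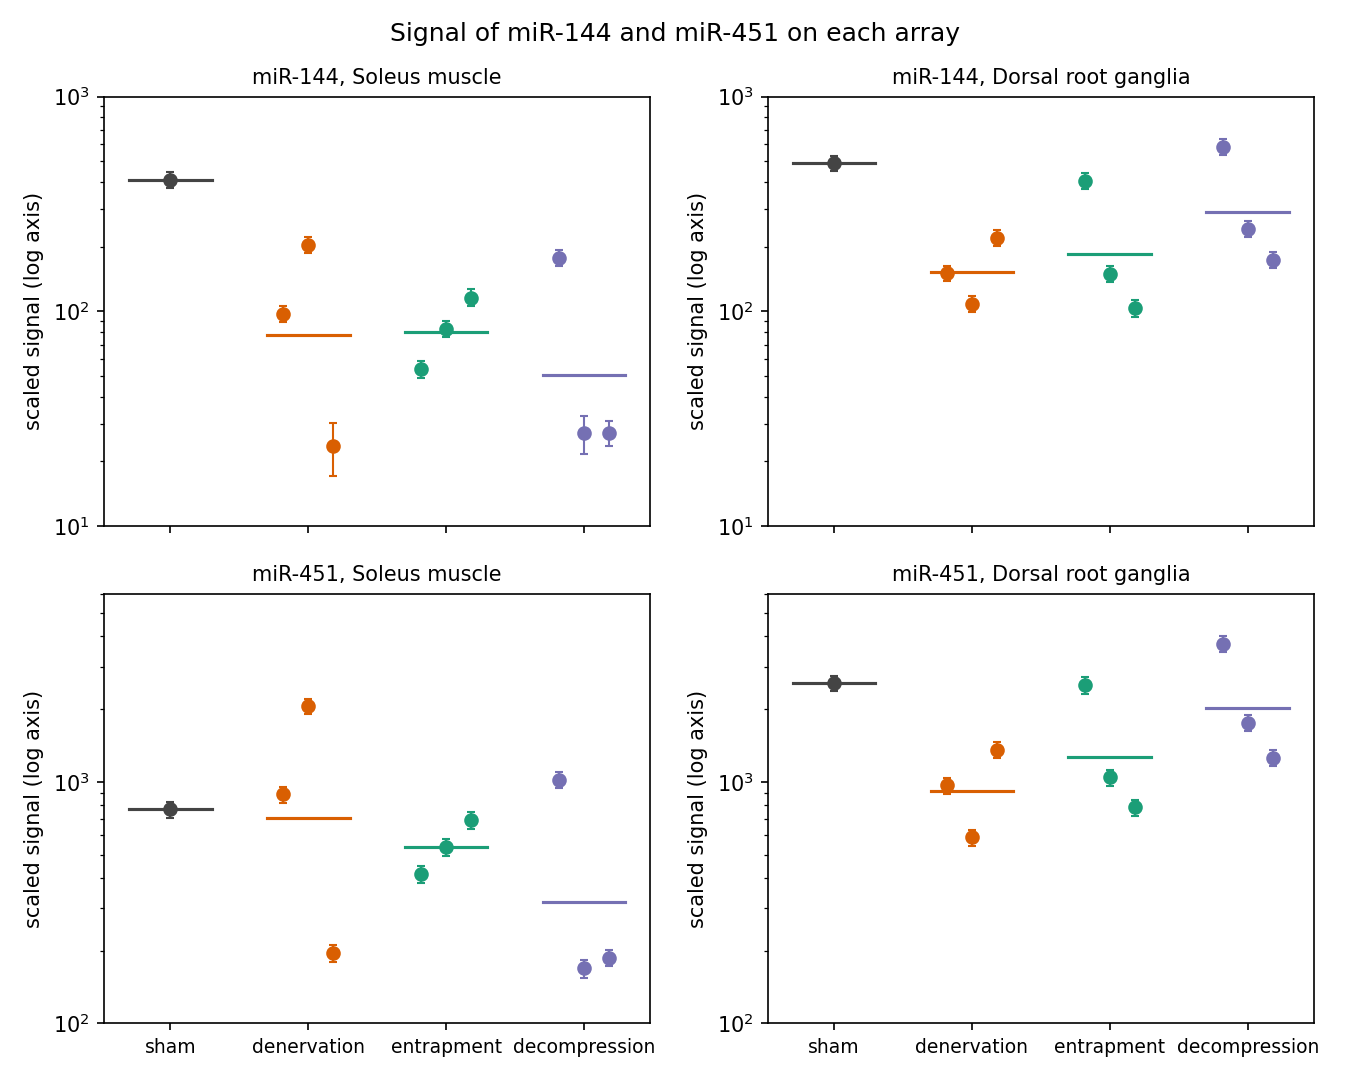
Scaled signal of miR-144 (top) and miR-451 (bottom) on each array of soleus muscle (left) and DRGs (right), on log axes; points are single arrays in the order of their replicate numbers, bars are the error given by Feature Extraction, and horizontal lines are geometric means. In soleus the sham array is the highest for miR-144 at 410.1 and lies inside the denervation and decompression groups for miR-451 at 769.

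In limma's test on log2 scaled signal over all 10 soleus arrays, miR-144 differed from sham by -2.40 after denervation (SE 1.27, adjusted p = 0.192), by -2.35 after entrapment (adjusted p = 0.197) and by -3.01 after decompression (adjusted p = 0.107). The same test called 26.6%, 29.5% and 31.8% of the 173 miRNAs in these comparisons. miR-451 differed from sham by -0.12 (limma, adjusted p = 0.950), -0.52 (adjusted p = 0.798) and -1.27 (adjusted p = 0.482) on the log2 scale. The medians over all tested miRNAs were -0.071, -0.37 and -0.25. The 95% interval of the denervation difference ran from -5.28 to 0.48 for miR-144 and from -2.99 to 2.75 for miR-451, so that changes of several-fold in either member would have gone uncalled. Without decompression 1, the brightest of its group for both members, miR-144 was lower after decompression by -3.92 with an adjusted p of 0.0346 (limma). With the arrays left unscaled, miR-144 was 2-fold below sham on 1 denervation array, 0 entrapment arrays and 2 decompression arrays, and the direction of miR-451 against sham turned in all 3 groups. The median of all tested miRNAs then stood 1.32, 1.04 and 1.02 above sham on the log2 scale, and miR-144 stood at -0.92, -0.72 and -1.66.

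Between the injuries, soleus gave no call for either member. Entrapment less denervation came to a log2 difference of 0.046 for miR-144 (limma, adjusted p = 0.991) and -0.40 for miR-451 (adjusted p = 0.861), where 11.6% of miRNAs were called. Decompression less denervation came to -0.62 for miR-144 (limma, adjusted p = 0.628) and -1.15 for miR-451 (adjusted p = 0.440), where 13.9% were called. Decompression less entrapment came to -0.66 for miR-144 and -0.75 for miR-451, both with an adjusted p of 1 in limma. In this last comparison 0 of 173 miRNAs were called, and limma's p before adjustment was under 0.05 for 6 that were lower and 1 that was higher.

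In the DRGs, miR-144 and miR-451 had the lowest and the next lowest estimate of all 219 miRNAs tested after denervation, and neither passed the test. Both were also among the most variable miRNAs within groups there, ranking 1 and 4 from the largest SD. The scaled signal of miR-144 was 489 on the sham array and 150.2, 108 and 220.2 after denervation. It was 404, 149.6 and 103 after entrapment, and 585, 242 and 174 after decompression. All denervation and entrapment arrays lay below sham, and decompression 1 lay above it. miR-144 was at least 2-fold below sham on each denervation array, which held for 2 of the 219 miRNAs (0.913%), miR-144 and miR-327. Unlike miR-144, miR-327 was not detected on every DRG array. In the entrapment and decompression groups miR-144 was 2-fold below sham on 2 of 3 arrays, where 11% and 13.7% of miRNAs were lower on all 3.

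The scaled signal of miR-451 in the DRGs was 2561 on the sham array and 967, 589 and 1353 after denervation. It was 2513, 1044 and 784 after entrapment, and 3728, 1753 and 1260.1 after decompression. The arrays fell in nearly the same order as for miR-144, with decompression 1 the brightest of the 10 for both members. The denervation arrays lay below sham without overlap, denervation 3 by 1.89-fold, so that miR-451 fell short of 2-fold on that array. At 1.5-fold it too was lower on all 3 denervation arrays. Over 4 alternatives to the rule, 1.5-fold and 3 other scalings, 1 to 12 of the 219 miRNAs were lower on all 3. Lying below sham on all 3 denervation arrays at any distance held for 36.5% of the miRNAs tested, and on all 3 entrapment arrays for 48.4%.

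In limma's fit of the 10 DRG arrays the log2 difference of denervation from sham was -1.68 for miR-144 (SE 0.84, adjusted p = 0.353) and -1.48 for miR-451 (SE 0.77, adjusted p = 0.361), beside a median of -0.017 over all tested miRNAs. That comparison called 0.457% of the miRNAs. The 95% intervals were -3.60 to 0.25 and -3.25 to 0.28. Entrapment differed from sham by -1.41 for miR-144 (limma, adjusted p = 0.247) and by -1.01 for miR-451 (adjusted p = 0.356), where 19.6% were called. Decompression differed from sham by -0.75 for miR-144 (limma, adjusted p = 0.515) and by -0.34 for miR-451 (adjusted p = 0.745), where 18.3% were called.

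Decompression stood above denervation in the DRGs for both members, by 0.93 for miR-144 (limma, adjusted p = 0.242) and by 1.14 for miR-451 (adjusted p = 0.134) on the log2 scale. These were the estimates ranked 217 and 218 from the lowest of 219, where 36.5% of miRNAs were called. Each decompression array lay above the mean of the denervation arrays for both members, although the groups overlapped. The share of miRNAs with this pattern was not counted, and the members vary together, so they are not separate observations. With each array scaled to its median instead, the 2 differences were 1.58 and 1.79 with adjusted p of 0.0280 and 0.0110 (limma), and the median of all tested miRNAs was 0.51 in place of -0.15. Entrapment stood above denervation by 0.27 for miR-144 (limma, adjusted p = 0.747) and by 0.47 for miR-451 (adjusted p = 0.520), where 41.1% were called. Without entrapment 1 these differences were -0.30 and -0.019. Decompression and entrapment differed by 0.66 and 0.67, with an adjusted p of 1 for each. Here limma called 0 of 219 miRNAs, its p before adjustment was under 0.05 for 1 lower and 8 higher ones, and the sign of both differences turns if the group names of the processed values are used.

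**Figure D2:**
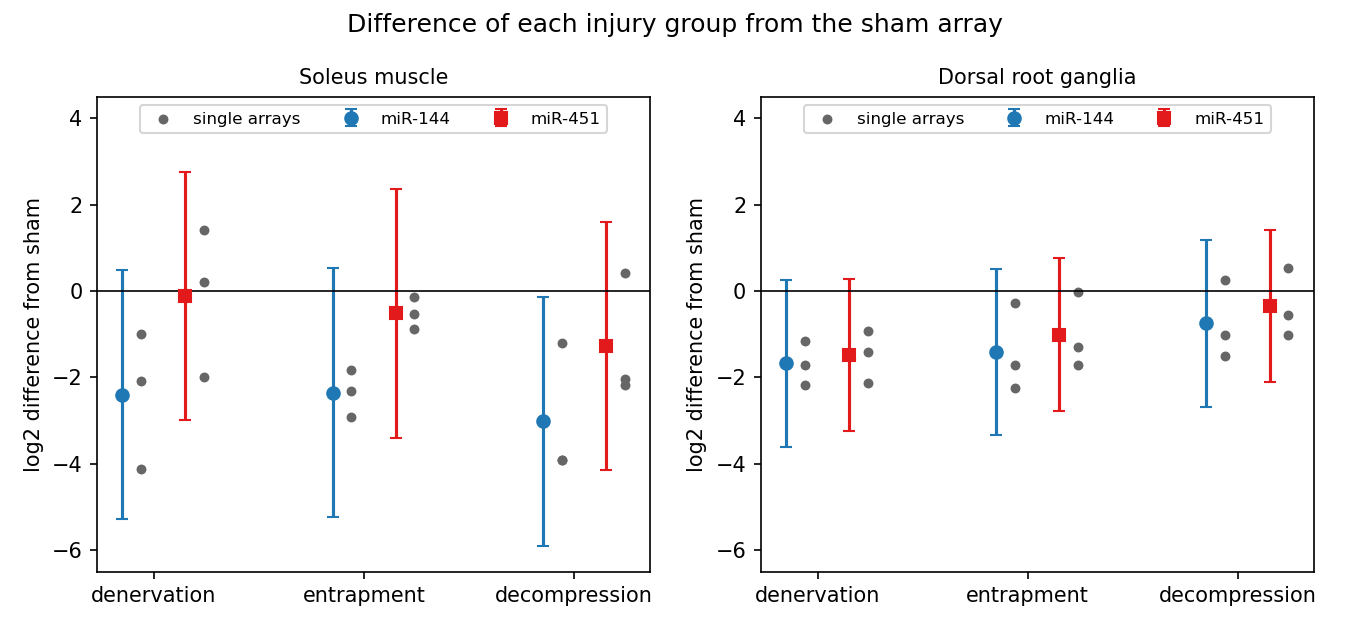
Log2 difference from the sham array of the same tissue for miR-144 (circles) and miR-451 (squares), with 95% intervals from limma and each single array as a small grey point to the right. Every interval reaches 0 except that of miR-144 after decompression in soleus, whose upper end is -0.13 before adjustment over 173 miRNAs (adjusted p 0.107).

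Both members varied strongly among arrays of the same group. In soleus the pooled SD within the 3 injury groups was 1.32 on the log2 scale for miR-144 and 1.32 for miR-451, beside a median of 0.45 over the 173 miRNAs tested. They ranked 6 and 8 from the largest of these 173, and 1 and 2 among the 108 detected on all soleus arrays. In the DRGs the SD was 0.84 for miR-144 and 0.77 for miR-451, beside a median of 0.15 over 219 miRNAs. miR-144 ranked 1 and miR-451 ranked 4 from the largest there, and 1 and 3 among the 173 detected on all DRG arrays. The error that Feature Extraction attached to a single signal was 7.46% to 9.41% on most arrays. It reached 27.4% for miR-144 on soleus denervation 3, 20.2% on decompression 2 and 13.0% on decompression 3, the arrays with the weakest signals. This error covers the reading of 1 array and not the difference between samples. Within the soleus denervation group miR-144 spanned 8.67-fold and miR-451 10.5-fold.

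**Figure D3:**
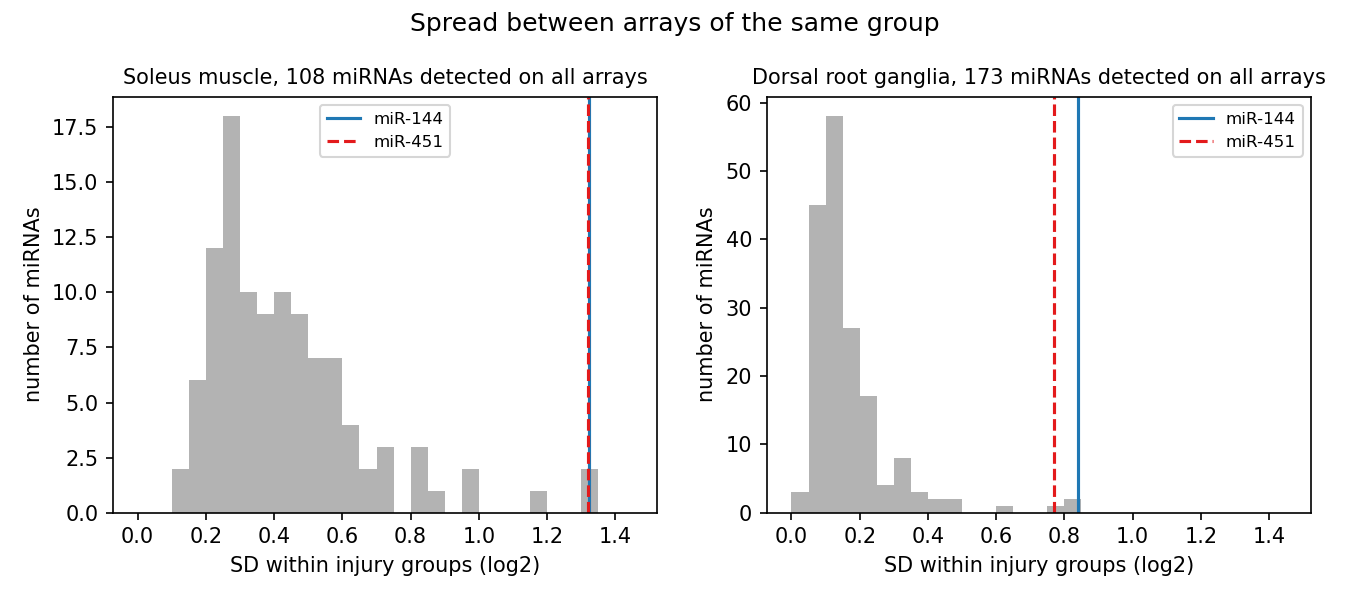
Histograms of the pooled within-group SD (log2 scaled signal, x axis) over the miRNAs detected on all 10 arrays of a tissue, with the number of miRNAs on the y axis and lines at miR-144 and miR-451. In soleus both lines lie at 1.32, at the upper end of 108 miRNAs, and in the DRGs at 0.84 and 0.77 among 173.

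The 2 members varied together. Over the 10 soleus arrays Pearson's r of their log2 scaled signals was 0.875 (permutation p = 0.00178, adjusted over 8 correlation tests 0.00278) and Spearman's rho was 0.867 (permutation p = 0.00208, adjusted 0.00278), both two-sided. Without the 2 arrays farthest from the median of miR-451, denervation 2 and decompression 2, r was 0.871. The sham array stood off the line of the others, and over the 9 injury arrays r was 0.974. As deviations from the group means, r over these 9 arrays was 0.993.

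In the DRGs, r over 10 arrays was 0.981 (permutation p = 2e-05, the smallest that 100000 resamples give, adjusted 8e-05) and rho was 0.976 (permutation p = 2e-05, adjusted 8e-05). Without denervation 2 and decompression 1, r was 0.985, and as deviations from the group means over 9 arrays it was 0.992. The 6 entrapment and decompression arrays lay on the same side of the split by control features, and within them r was 0.992 in soleus and 0.998 in the DRGs. Whether control features part these 2 groups from each other was not tested. In both tissues rho there was 1 with an exact permutation p of 0.00278, the smallest that 6 arrays allow. Each pair of values shares 1 array and its scaling, and red blood cell content or another source was not measured.

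**Figure D4:**
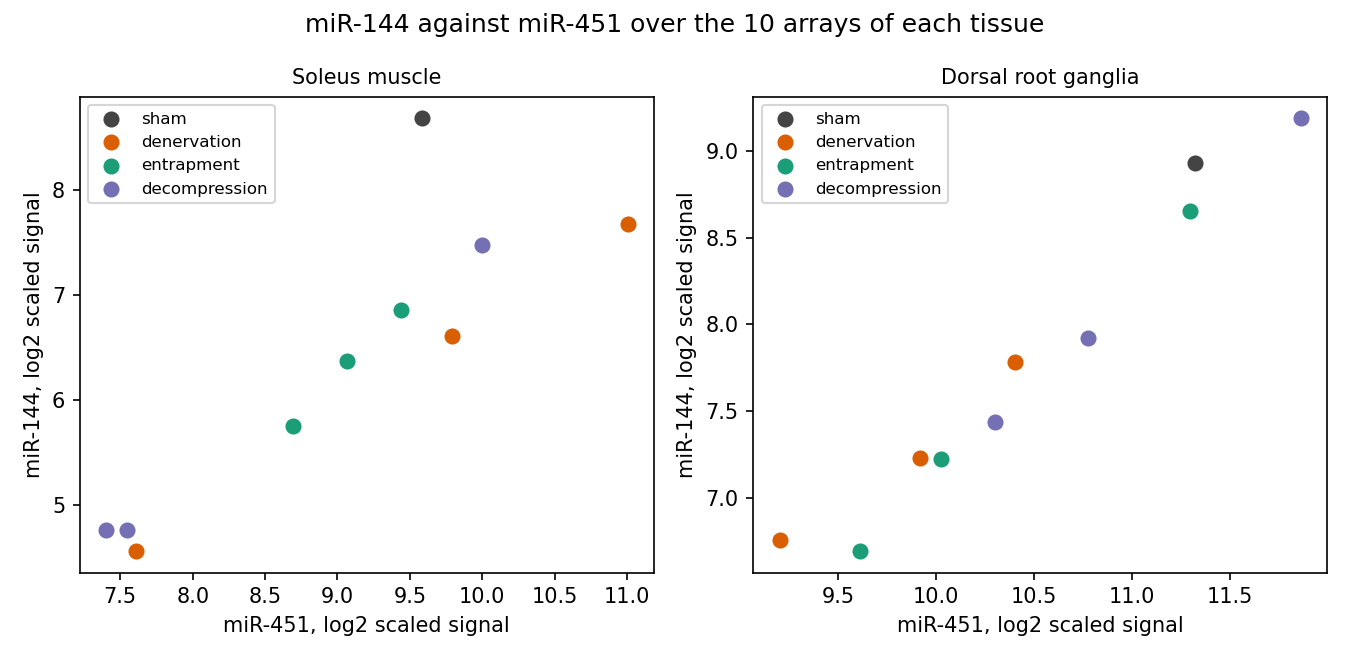
Log2 scaled signal of miR-144 (y axis) against that of miR-451 (x axis) over the 10 arrays of soleus (left) and DRGs (right), coloured by group. The arrays lie along a line (r 0.875 in soleus and 0.981 in the DRGs), and the soleus sham array lies above the line of the 9 injury arrays, whose own r is 0.974.

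Each was the other's closest match by this measure in the DRGs, also with the arrays unscaled or quantile scaled. In soleus miR-144 was the closest to miR-451, though under quantile scaling miR-142-5p (0.851) came just before miR-144 (0.848). Among 218 other tested miRNAs in the DRGs, miR-451 had the highest r with miR-144 and miR-144 the highest with miR-451, at 0.981. Next came miR-15b (0.782 with miR-144, 0.859 with miR-451) and miR-93 (0.701 and 0.746), followed by miR-19a (0.553) and miR-19b (0.547) for miR-144 and by miR-483 (0.530) and miR-92a (0.528) for miR-451. The place of miR-93 depended on the scaling: unscaled its r was 0.28 and 0.20 (rank 17 for both members) and quantile scaled 0.47 and 0.58 (ranks 20 and 9), while miR-15b ranked 2 in each case. In soleus, miR-144 again led the 172 others for miR-451, with miR-25 next (0.756), then miR-542-3p (0.741), miR-19a (0.725) and miR-142-5p (0.721). For miR-144 the leukocyte miRNA miR-142-5p came first with 0.900 and miR-451 ranked 2, and over the 9 injury arrays alone miR-451 ranked 1. Under quantile scaling these ranks of miR-451 were 3 and 2. miR-542-3p (0.843), miR-93 (0.820) and miR-92a (0.774) followed. Of the miRNAs named here, miR-142-5p, miR-542-3p and miR-19a were not detected on every soleus array. In the DRGs the same held for miR-19a and miR-483. Their r therefore includes signals without a detection call. The median r over all other miRNAs was 0.16 and 0.17 in soleus and -0.19 and -0.24 in the DRGs, and these values are given as descriptions without a test.

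The ratio of miR-144 to miR-451 on an array is free of the scaling, because any factor of the array cancels. Probes of different miRNAs are not calibrated against each other, so only its change from array to array is read here. The signal of miR-144 was 53.3% of that of miR-451 on the soleus sham array. It was 11.0%, 9.96% and 12.1% after denervation, 13.0%, 15.5% and 16.7% after entrapment, and 17.4%, 16.1% and 14.6% after decompression. All 9 injury arrays thus lay in a narrow band well below sham, although between those arrays miR-144 spanned 8.67-fold and miR-451 spanned 12.2-fold. Expressed as log2, the mean ratio was -3.19 ± 0.14 after denervation, -2.74 ± 0.18 after entrapment and -2.65 ± 0.13 after decompression (SD, n = 3 each), against -0.91 for the single sham array.

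In the DRGs the sham array did not stand apart in this way. The signal of miR-144 was 19.1% of that of miR-451 on the sham array, 15.5%, 18.3% and 16.3% after denervation, 16.1%, 14.3% and 13.2% after entrapment, and 15.7%, 13.8% and 13.8% after decompression. Sham was the highest of the 10, but by less than the error of a single ratio over denervation 2. As log2 the mean ratio was -2.58 ± 0.12 after denervation, -2.79 ± 0.14 after entrapment and -2.80 ± 0.11 after decompression (SD, n = 3 each), against -2.39 for sham. The error of a single log2 ratio from Feature Extraction was 0.16 to 0.18 in the DRGs, beside SDs of 0.11 to 0.14 within a group there. In soleus this error was 0.16 to 0.41, beside SDs of 0.13 to 0.18, and the largest was that of denervation 3.

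**Figure D5:**
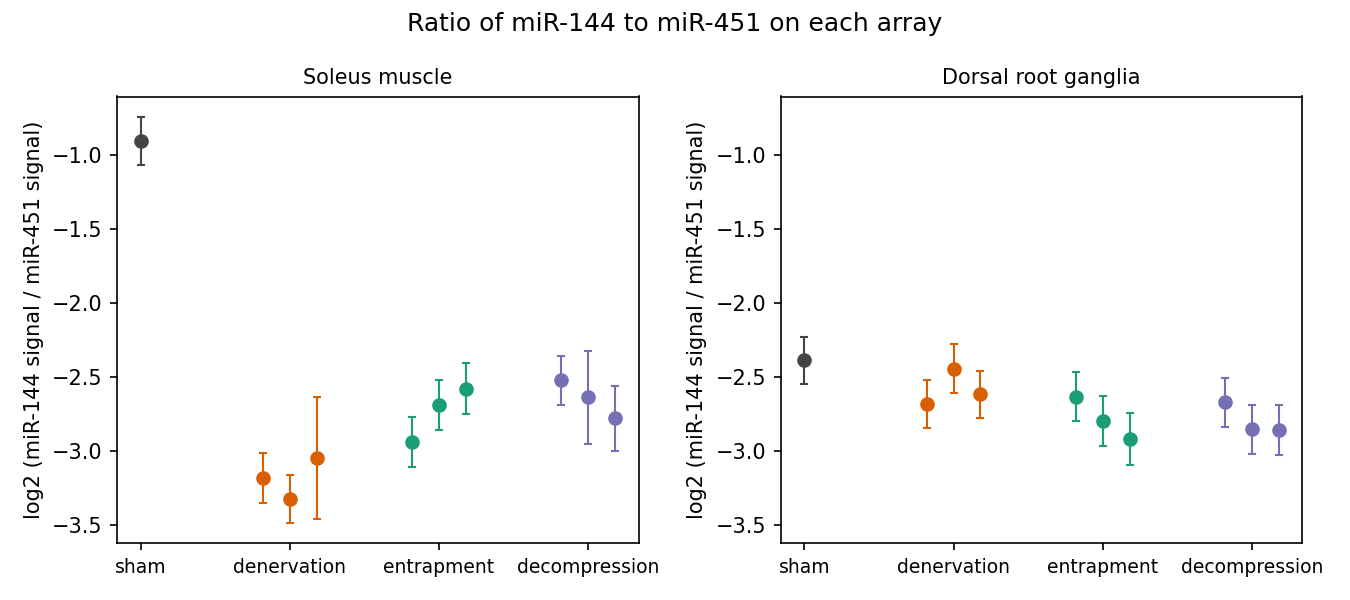
Log2 ratio of the miR-144 signal to the miR-451 signal (y axis) on each array by group, for soleus (left) and DRGs (right), with error bars from the errors of both signals. The soleus sham array lies at -0.91, and the 18 injury arrays of both tissues and the DRG sham array lie between -3.33 and -2.39.

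To place these ratios, the same was computed for every pair of miRNAs detected on all arrays of a tissue. The log2 ratio of miR-144 to miR-451 had an SD of 0.28 over the 9 soleus injury arrays, against a median of 0.68 over 5778 pairs, and 5.95% of pairs were as steady or steadier. The DRG SD was 0.15 against a median of 0.31 over 14878 pairs, with 15.6% as steady or steadier. The distance of the sham ratio from the mean of the injury arrays was 1.95 in soleus, or 3.87-fold, and 26.8% of pairs moved that far or farther. In the DRGs it was 0.33, or 1.26-fold, and 47.2% of pairs moved that far. A sham ratio this far from the injury arrays was therefore common among soleus pairs, and it rests on 1 array.

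Put on 1 scale over all 20 arrays, miR-144 and miR-451 stood lower in soleus than in the DRGs on average, without passing the test. The mean log2 scaled signal of miR-144 ran in the order DRG sham 8.68, soleus sham 8.37, DRG decompression 7.93, DRG entrapment 7.27, DRG denervation 7.00, soleus entrapment 6.82, soleus denervation 6.26 and soleus decompression 6.14. For miR-451 the order was DRG sham 11.07, DRG decompression 10.72, DRG entrapment 10.06, DRG denervation 9.58, soleus entrapment 9.56, soleus denervation 9.45, soleus sham 9.28 and soleus decompression 8.79. The SD within the injury groups was 0.40 to 1.78, and every step between neighbouring injury groups was smaller than the larger of their SDs. The 2 sham arrays were the highest for miR-144, while for miR-451 the soleus sham array was next to last.

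The log2 difference of soleus from DRG, averaged over the 4 groups, was -0.82 for miR-144 (SE 0.53, limma adjusted p = 0.169) and -1.09 for miR-451 (SE 0.51, limma adjusted p = 0.0672), where 77.4% of 234 miRNAs were called. This comparison depended on the scaling: miR-451 was called under 3 other scalings and miR-144 under 1, and both changed direction when the arrays were scaled to their medians. Without soleus denervation 2 or soleus decompression 1 the value of miR-451 was -1.29 or -1.30, with limma adjusted p of 0.0225 and 0.0191. The fit over both tissues took all 20 arrays as independent. Which soleus and DRG arrays came from the same rat is not given in the sources used here. Whether an injury shifted a member differently in the 2 tissues was tested as the difference of the 2 changes from sham. It was -0.43, -0.14 and -1.48 for miR-144 after denervation, entrapment and decompression (limma adjusted p = 0.873, 0.965 and 0.540). For miR-451 it was 1.65, 1.29 and -0.14 (limma adjusted p = 0.525, 0.632 and 0.949). The background was 17.5%, 25.2% and 29.9% of 234 miRNAs called.

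Other miRNAs that are abundant in red blood cells, though not specific to them, gave no common shift. Of a list of 9, 8 were on the array, and 6 could be tested in soleus and 7 in the DRGs. In soleus miR-92a was lower than sham after denervation by -1.56 (limma adjusted p = 0.0355), and miR-92a and miR-93 were lower after entrapment (-1.88 and -1.71) and after decompression (-1.83 and -1.90). None of the 6 was higher, and the list medians of -0.36, 0.034 and 0.019 stood beside -0.071, -0.37 and -0.25 for all tested miRNAs. In the DRGs 0 of 7 were called against sham in any group, and miR-92a was higher after decompression than after denervation by 0.40 (limma adjusted p = 0.0373). Unscaled, this DRG difference of miR-92a was -0.029 (limma adjusted p = 0.855). The calls of miR-92a and miR-93 in soleus, and of miR-142-5p below, depended on the scaling: under 4 other scalings each stayed lower than sham, but 0 of 28 values were called by limma (8 at a p under 0.05 before adjustment), with adjusted p of 0.055 to 0.979. Scaled to the array medians, miR-93 after entrapment also missed the threshold (limma adjusted p = 0.0504). The summed scaled signal of the 8 was 1527 to 2735 over the 10 soleus arrays and 1896 to 2297 over the 10 DRG arrays. The median r of the tested list with miR-144 and miR-451 was 0.50 and 0.45 in soleus and 0.29 and 0.27 in the DRGs. Single list members ranged from -0.17 to 0.82 with miR-144 and from -0.21 to 0.76 with miR-451 in soleus. In the DRGs they ranged from -0.18 to 0.70 and from -0.16 to 0.75, with miR-16 lowest and miR-93 highest for both members. In soleus r of miR-16 was 0.24 and 0.23.

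Leukocyte and endothelial miRNAs were read beside them as markers of blood and vessels. Of 5 leukocyte miRNAs, miR-223 was higher in soleus after denervation by 1.34 (limma adjusted p = 0.0485), and miR-142-5p was lower after entrapment by -1.99 (adjusted p = 0.0432) and after decompression by -2.29 (adjusted p = 0.0249). The call of miR-223 was lost with the arrays unscaled (limma adjusted p = 0.126). miR-142-5p was detected on the soleus sham array, but not on every array of any injury group there. Its differences from sham therefore include signals without a detection call. After decompression miR-223 was lower than after denervation by -1.11 (limma adjusted p = 0.0408), which held under median scaling but not under 4 other scalings (adjusted p of 0.0948 to 0.558). The summed scaled signal of the 5 in soleus was 778 on the sham array, 595 to 961 after denervation, 436 to 543 after entrapment and 394 to 544 after decompression. The endothelial miR-126 and miR-126* were both higher than sham in soleus in all 3 groups, miR-126 by 1.64, 1.90 and 1.93 on the log2 scale, while miR-144 stood lower there. Unscaled, miR-126 missed the threshold after denervation and decompression (limma adjusted p = 0.0872 and 0.0620). miR-126* was not detected on the soleus sham array. In the DRGs 0 of 5 leukocyte miRNAs were called against sham. Their sum was 1043 on the sham array, 845 to 1336 after denervation, 643 to 760 after entrapment and 898 to 1112 after decompression, so that the entrapment arrays were the lowest. After entrapment 3 of the 5 were lower than after denervation, miR-142-3p by -0.70, miR-142-5p by -0.74 and miR-150 by -0.49 (limma adjusted p = 0.0472, 0.0287 and 0.0151), where miR-144 and miR-451 differed by 0.27 and 0.47. Under median scaling none of these 3 was called (limma adjusted p = 0.862, 0.760 and 0.404) and miR-150 turned to 0.15. Of the 3, miR-142-3p and miR-142-5p also missed the threshold under loess scaling (adjusted p = 0.0580 and 0.0727) and quantile scaling (0.114 and 0.174), and miR-142-3p with the percentile over the other set of miRNAs (0.0593). Among the endothelial pair, miR-126* was lower in the DRGs after entrapment (-1.69) and decompression (-1.68). It was also lower than after denervation, by -1.67 and -1.66 in the DRGs and by -1.03 and -0.99 in soleus (limma adjusted p = 0.0388 and 0.0408). The 2 soleus calls were lost under all 5 other scalings (adjusted p of 0.0954 to 0.990). The part of blood content in the levels of miR-144 and miR-451 was not tested.

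The miRNAs that share most of the seed of miR-144 did not follow it. miR-101a and miR-101b, printed above, were called by limma in 0 of the 12 comparisons within a tissue, with an unadjusted p under 0.05 in 1 of them for miR-101a and in 3 for miR-101b. In the DRGs their r with miR-144 was -0.81 and -0.76 (-0.41 and -0.32 unscaled), with higher signals on the injury arrays than on the sham array (summed scaled signal 534 to 722 against 488). In soleus r was -0.11 and 0.076. These are descriptions over 10 arrays of each tissue.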

How the data were processed

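Total RNA of soleus muscle and DRGs was labelled with Cy3 and hybridised to a 1-colour Agilent rat miRNA array with 350 miRNAs. The deposited scanner files, written by Agilent Feature Extraction 9.5.3 per the file headers, hold for each miRNA a background-subtracted total gene signal, an intensity on a linear scale, its error, and a detection call of another kind (1 or 0). The labels describe linear amplification with Cy3-CTP and the Methods a Cy3 ligation, so the labelling step is not settled. A second table deposited by the authors holds processed values, treated as a score because its scale is unstated, and served only as an alternative. On soleus arrays 96.1% to 100% of its values for signals above 20 lay within 1% of the scanner signals times 1 constant per array.

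Scaling divided an array by its own 75th percentile and multiplied it by the geometric mean of these percentiles. For soleus the percentile was taken on the 108 miRNAs with a detection call on every array; for the DRGs, and for 20 arrays together, on all 348. Signals under a floor of 2.71 (soleus) or 2.31 (DRGs) were raised to that floor before the log2 step. A detection call on at least 3 arrays was required for testing, which left 173 in soleus, 219 in the DRGs and 234 over both tissues. limma 3.58.1 (R 4.3.3) was fitted with group alone, with Benjamini-Hochberg adjustment over all tested miRNAs and a threshold of 0.05; the spread of the single sham array was taken to equal that of the rest. The labels call the arrays of a group biological replicates. A difference of 2-fold from sham on each of 3 arrays was counted without a test. Correlations were tested by permuting arrays (scipy 1.17.1; 100000 resamples, or all orders for 6 arrays). The scripts were tested on simulated data.

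The members and all marker lists were chosen with earlier results of these data known. Besides the members, the rule names the 5 miRNAs with the highest r for each member and tissue, miR-101a and miR-101b, and list members where a count is 5 or fewer or a result turns on them. The muscle and neuron lists served to check the tissues, and their calls are not described. miR-16, miR-327 and miR-499 were named after their values were seen. The alternatives were other scalings, filters and floors, the processed values, a replicate block, and leaving out each array. Arrays give no count of molecules, and their number limits the precision.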

Additional observations from a re-analysis of the deposited data

Results flagged for a closer look

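The log2 ratio of miR-144 to miR-451 moved in opposite directions in soleus and DRGs between the injuries, each array compared with the denervation mean of its tissue. In soleus the entrapment and decompression arrays also lay above all 3 denervation arrays (-3.33 to -3.05), whereas in the DRGs the groups overlapped: entrapment 1 (-2.64) and decompression 1 (-2.67) lay inside the denervation range of -2.69 to -2.45. After entrapment it stood above the denervation mean in soleus by 0.45 (0.24 to 0.60 on the 3 arrays), and in the DRGs the difference was -0.20 (-0.34 to -0.05). After decompression it stood above the denervation mean in soleus by 0.54 (0.41 to 0.66), and in the DRGs the difference was -0.21 (-0.28 to -0.09). The difference between the tissues was not tested. How many other pairs of miRNAs set these soleus groups apart in the same way was not counted. The error of a single log2 ratio was 0.16 to 0.41, and 12 control features in soleus and 24 in the DRGs part the denervation and sham arrays from the other 6, so their part in these ratios cannot be told apart from that of the injury.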

How the results depend on the processing

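No member was called in any of the 12 comparisons within a tissue. Of 396 values recomputed under other settings 361 counted as the same, as did 380 of 396 with 1 array left out. For differences and correlations this meant the same direction and side of the threshold. A count of arrays under the fold rule had to keep its answer to whether all 3 passed, and a ratio had to stay within the SD of its group. A difference that stays uncalled can meet this although its size moves. The sign of miR-451 in soleus depended on the scaling. Its log2 difference of denervation from sham, -0.12, was 1.36 unscaled, 0.15 with loess scaling, 0.17 with the percentile over the other set of miRNAs and 1.82 in the processed values. That of entrapment, -0.52, was 1.11 unscaled, 0.28 with the other set and 1.67 in the processed values; that of decompression was 0.080 unscaled, and entrapment less denervation was 0.11 with the other set. Unscaled, miR-144 in soleus was 2-fold below sham on 1, 0 and 2 arrays of the 3 groups. In the DRGs miR-451 was lower on all 3 denervation arrays at 1.5-fold and, at 2-fold, under quantile scaling (3 each). Over the 4 alternatives to the fold rule, 1 to 12 miRNAs were lower on all 3 of these arrays. Unscaled, miR-144 in the DRGs differed by -0.17 between entrapment and denervation. Median scaling gave 0.10 (miR-144) and 0.51 (miR-451) for DRG decompression against sham, 1.58 and 1.79 for decompression against denervation (limma adjusted p 0.0280 and 0.0110), and 2 denervation arrays with miR-144 2-fold lower. Decompression less entrapment in the DRGs was -0.65 and -0.66 in the processed values, and -0.66 and -0.67 with the scanner values under the processed names, a setting chosen after seeing the data.

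Over both tissues, soleus less DRG for miR-451 was -1.76 unscaled, -1.60 with quantile scaling and -1.89 with the other set (limma adjusted p 0.0340, 0.00422 and 0.00324); for miR-144 it was -1.62 with the other set (adjusted p 0.0103). Median scaling gave 0.85 for miR-144 and 0.58 for miR-451. The tissue difference of the change from sham, unscaled, was 0.67 (denervation) and 1.04 (entrapment) for miR-144 and 0.76 (decompression) for miR-451; under median scaling it was 0.23 for miR-144 after entrapment and 0.12 for miR-451 after decompression. The cause of these shifts was not tested.

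With 1 array left out, soleus values ran from -1.29 to 0.37 for miR-451, entrapment less denervation, from -0.89 to 0.75 for miR-451, denervation less sham, from -0.77 to 0.74 for miR-144, entrapment less denervation, from -1.52 to 0.082 for miR-144, decompression less denervation, and from -3.92 to -2.55 for miR-144, decompression less sham. Signs turned without denervation 2 (0.37 and 0.082), without denervation 3 (0.75 and -0.77) and, for miR-144 in entrapment less denervation, without entrapment 3 (-0.18); the -3.92 was without decompression 1. DRG entrapment less denervation ran from -0.30 to 0.69 for miR-144 and from -0.019 to 0.82 for miR-451, negative without entrapment 1. Over both tissues, soleus less DRG for miR-451 ran from -1.30 to -0.85, and the tissue difference of the change from sham ran from -1.16 to 0.45 (denervation) and -0.56 to 0.43 (entrapment) for miR-144 and from -0.99 to 0.38 (decompression) for miR-451. The correlation of both members kept its side of the threshold throughout, between 0.848 and 0.974 in soleus and 0.972 and 0.988 in the DRGs.

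Within a tissue, same-numbered arrays of different groups had deviations correlated by -0.47 to 0.20 in soleus and -0.12 to 0.48 in the DRGs. For differently numbered arrays the ranges were -0.48 to 0.55 and -0.50 to 0.32. Only arrays of the same tissue were compared, so a pairing of soleus with DRG arrays was not tested. With a replicate block, soleus miR-144 against sham was -2.40, -2.35 and -3.01 (limma adjusted p 0.230, 0.219 and 0.126), and no member was called; calls among all miRNAs went from 20 to 12 for soleus entrapment less denervation and from 24 to 14 for decompression less denervation. Under the other settings the number of miRNAs called in soleus ranged from 0 to 48 after denervation (46 as reported), 1 to 57 after entrapment (51) and 1 to 64 after decompression (55), and in the DRGs from 1 to 16 (1), 22 to 141 (43) and 20 to 148 (40).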
